A study of Mus musculus with 6 samples.

Results

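The genes described here make, destroy or read the second messengers cAMP and cGMP, together with the receptors for the neuropeptide PACAP. They were the entries of the deposited count table whose symbols are those of an adenylyl cyclase (Adcy and a number), of a cyclic nucleotide phosphodiesterase (Pde, a number and a letter a to d), of the receptors Adcyap1r1, Vipr1 and Vipr2, of the protein kinase A (PKA) subunits Prkaca, Prkacb, Prkar1a, Prkar2a and Prkar2b, or of the transcription factor Creb1. This gave 41 of 22966 genes, matched by name, with earlier results of these data known when the gene group was chosen. RNA was sequenced from 6 libraries labelled as primary hepatic stellate cells, the retinoid-storing pericytes of the liver that become matrix-producing myofibroblasts after injury. 3 libraries were titled flox and 3 were titled Cre. All 6 libraries carry the same genotype entry, BucheHep, and the same treatment entry, CCl4 (carbon tetrachloride, a liver toxin used to induce fibrosis). The groups therefore rest on the titles, and the series describes a butyrylcholinesterase knockout in hepatocytes and not in the sequenced cells. The labels give no age, dose, promoter of the Cre or cell sort. They also leave unsaid whether each library is a separate animal, so p-values measure only the spread between these 6 samples, and that spread may be technical.

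PACAP and VIP bind class B receptors that couple to the stimulatory G protein Gs, which activates the membrane adenylyl cyclases. The cyclases turn ATP into cAMP, and cAMP releases the catalytic subunits of PKA from the regulatory subunits, after which PKA phosphorylates CREB1 and other targets. Phosphodiesterases end the signal by hydrolysing cAMP, cGMP or both, and each family differs in substrate and control. In stellate cells, agents that raise cAMP are known as inhibitors of activation in culture.

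Libraries held 37273142 to 41006722 counts, so that 3 counts correspond to 0.0732 to 0.0805 CPM (counts scaled to library size). CPM below are normalised with TMM factors of 0.905 to 1.07, except where this range for 3 counts is repeated. Bche encodes butyrylcholinesterase, and as its knockout is described for hepatocytes, these libraries do not check it. The gene had 17, 6 and 21 counts in flox 1 to 3 against 15, 8 and 2 counts in Cre 1 to 3, and did not pass the test (log2 fold change -0.88 ± 0.80, adjusted p = 0.467, edgeR). Stellate cell markers were detected in every library, with a summed level of 1254 to 3074 CPM in flox and 2188 to 3576 CPM in Cre. Of these 14 markers 2 rose (Hand2 and Dcn). Their levels differed widely, from Lrat at 0.124 to 2.49 CPM to Col1a1 at 243 to 836 CPM across the libraries, so the sum reflects mainly the high ones. The libraries also held markers of other cells. The summed level of 20 macrophage and Kupffer cell markers was 19793, 25234 and 9063 CPM in flox 1 to 3 and 2923, 2786 and 3437 CPM in Cre 1 to 3. 18 of these 20 fell, 0 rose, and none was at 0 in any library. Endothelial markers summed to 1963, 1535 and 4564 CPM in flox and 2566, 4248 and 3086 CPM in Cre, and 1 of 10 fell. Mesothelial markers summed to 325, 237 and 327 CPM in flox and 803, 902 and 260 CPM in Cre, and 0 of 10 passed with edgeR, 5 at an unadjusted p below 0.05. Hepatocyte markers summed to 51.4 to 599 CPM, mural markers to 79.9 to 238 CPM and lymphocyte markers to 4.25 to 24.9 CPM, and 0 of 9, 0 of 7 and 0 of 9 tested markers passed, with 3 of each list at an unadjusted p below 0.05. Tat and Cnn1 were among the markers at 0 in some libraries. Flox 3 stands apart from the other flox libraries. Its Spearman correlation across genes, which are not independent replicates, was 0.970 and 0.959 with flox 1 and 2, against 0.968, 0.964 and 0.975 with Cre 1 to 3. In bulk samples, fewer cells of a type and less RNA per cell cannot be told apart.

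Promoter sequence was read for the members, since CREB binds the cAMP response element TGACGTCA or its core TGACG. RefSeq (GRCm38.p6) gave 66 windows of 300 bases, from 250 before to 50 after a transcript start, for 33 of the 41 members. TGACG stood on either strand in 15 of the 66 windows (22.7%), beside 20.8% of 32851 windows of all genes. These 15 windows belong to 13 members. The palindrome TGACGTCA, which contains TGACG on both strands and so also counts as TGACG, stood in 2 windows (3.03%), beside 1.79% of all windows. Both were overlapping windows of Prkar1a and hold the same site. A match is a description of the letters and not of binding. The 4 windows below are those of the member with the largest rise, the member with the largest fall, a called member whose single window holds the core, and the member with the palindrome. Adcy7 has 3 windows and Prkar1a has 6, of which 1 each is shown. For Adcy7 the window shown is the only one that holds the core. All lie on the plus strand, and capitals mark TGACG or its reverse complement.
Adcyap1r1, chr6:55451728-55452027: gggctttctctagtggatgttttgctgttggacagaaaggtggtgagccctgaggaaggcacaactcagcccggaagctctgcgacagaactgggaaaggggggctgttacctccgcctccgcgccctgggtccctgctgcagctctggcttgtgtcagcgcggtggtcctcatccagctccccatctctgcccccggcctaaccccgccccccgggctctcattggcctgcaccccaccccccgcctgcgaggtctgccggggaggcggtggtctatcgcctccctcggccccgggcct
Adcy7, chr8:88282742-88283041: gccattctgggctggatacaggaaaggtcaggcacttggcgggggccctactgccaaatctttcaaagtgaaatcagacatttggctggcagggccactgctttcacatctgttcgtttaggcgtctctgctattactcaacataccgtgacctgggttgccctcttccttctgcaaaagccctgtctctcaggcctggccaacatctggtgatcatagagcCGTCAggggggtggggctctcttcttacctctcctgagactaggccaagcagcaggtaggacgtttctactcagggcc
Pde8a, chr7:81213015-81213314: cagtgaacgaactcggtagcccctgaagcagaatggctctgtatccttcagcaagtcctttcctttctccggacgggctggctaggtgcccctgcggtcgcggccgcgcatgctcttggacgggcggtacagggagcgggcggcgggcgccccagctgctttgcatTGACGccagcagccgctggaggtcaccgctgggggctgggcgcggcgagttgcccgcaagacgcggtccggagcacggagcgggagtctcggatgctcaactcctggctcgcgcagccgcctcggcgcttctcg
Prkar1a, chr11:109650612-109650911: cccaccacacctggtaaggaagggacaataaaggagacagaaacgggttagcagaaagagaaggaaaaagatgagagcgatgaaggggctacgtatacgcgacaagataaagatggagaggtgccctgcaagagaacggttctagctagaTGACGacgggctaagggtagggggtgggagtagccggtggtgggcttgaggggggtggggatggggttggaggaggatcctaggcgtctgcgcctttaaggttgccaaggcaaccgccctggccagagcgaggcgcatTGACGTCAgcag
The Adcyap1r1 window has no capitals, the Adcy7 and Pde8a windows have 1 core each, and the Prkar1a window has the palindrome and 1 further core.

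Of the 41 members, 32 had enough counts to be tested and 9 did not. With edgeR's quasi-likelihood test and an adjusted p below 0.05, 6 of the 32 (18.8%) passed, beside 15.3% of all 14795 genes tested. Adcyap1r1, Adcy1 and Pde3a were higher in Cre, where 6.35% of all genes were called higher. Adcy7, Pde1b and Pde8a were lower, where 8.94% of all genes were called lower. The share of members called is near that of all genes, so the results concern these single genes and not the group of 41. The flox and Cre libraries did not overlap for 9 of the 32 members, 6 with Cre above and 3 with Cre below, beside 39.6% of all genes tested. The median log2 fold change (Cre over flox) was 0.08 over the 32 members and 0.01 over all genes tested, with 20 members above 0 and 12 below. At an unadjusted p below 0.05 there were 10 members. DESeq2 called 9 of 32 members, adding Pde5a, Pde8b and Prkar2b, beside 29.3% of all genes. Limma-voom called 4 of 32, Adcy1, Adcyap1r1, Pde1b and Pde8a, beside 9.49% of all genes. With library totals in place of TMM, a change that moves the median log2 fold change of all genes by 0.157, 5 members were called higher and 3 lower, and 57.0% of the calls over all genes were higher against 41.5% with TMM. In the 3 fits on log2 FPKM, which also lack a composition factor, 57.7 to 59.6% of the calls over all genes were higher, and 4 or 5 members were called higher and 1 or 2 lower.

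The calls changed with the libraries used. When flox 1, flox 2, Cre 1 or Cre 2 was removed, 0 members were called by edgeR, with 9, 8, 8 and 8 members at an unadjusted p below 0.05. In each of those 4 fits 0 of all genes passed, with 3562 to 3978 at an unadjusted p below 0.05. Without Cre 3, Adcyap1r1 and Pde1b were called. Without flox 3, 14 members were called, 8 higher and 6 lower. The 8 added were Adcy3, Adcy6, Pde4b, Pde8b, Pde10a, Pde5a, Prkacb and Prkar2b, and 5329 of all genes passed. The direction of the 6 members called with all libraries was the same in each of these 6 fits and under every other setting that tested them. Adcy1 was not tested with a mean FPKM of at least 1. With the number in the title as a replicate block, 0 members and 0 of all genes were called. Counts of other settings given per gene below leave this fit out.

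**Figure D1:**
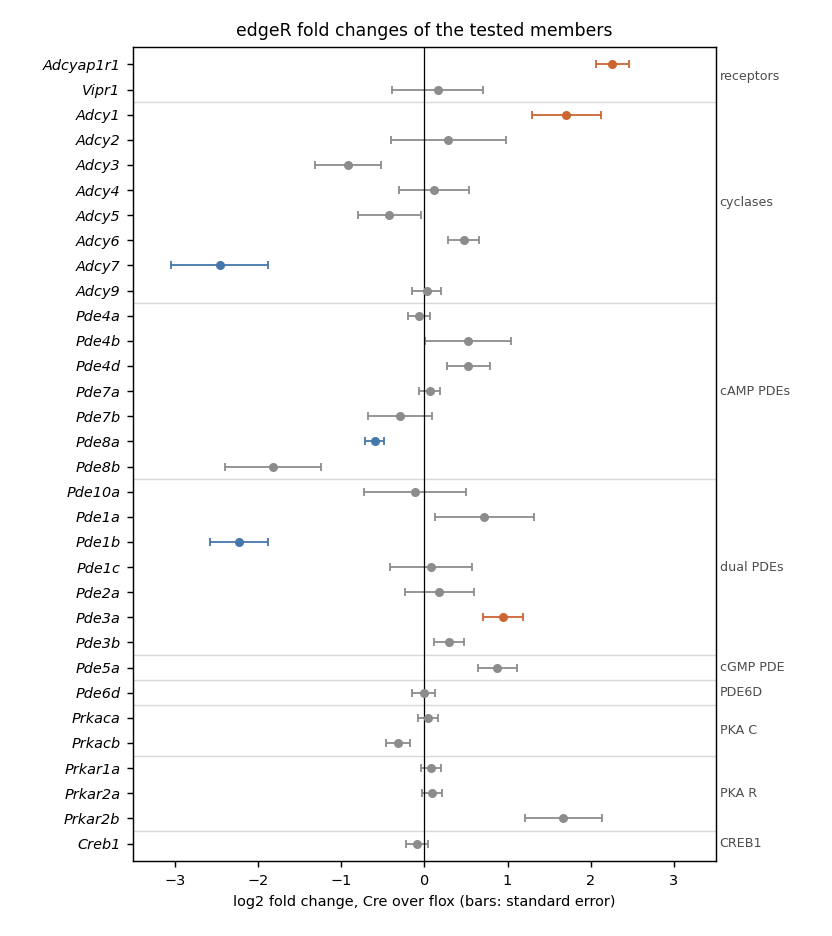
Log2 fold change (Cre over flox, horizontal axis) of the 32 tested members from edgeR, grouped by role. Points are estimates and bars 1 standard error, with members called higher in orange, lower in blue and not called in grey. Adcyap1r1 lies at 2.26 and Adcy7 at -2.46, while Pde6d, Prkaca, Prkar1a and Creb1 lie near 0.

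Adcyap1r1 encodes PAC1, the receptor with high affinity for PACAP (GRCm38 chromosome 6, 55451978 to 55501451). It was measured at 3.31, 3.28 and 4.401 CPM in flox 1 to 3 and 16.3, 19.5 and 16.9 CPM in Cre 1 to 3. All 3 Cre libraries lay far above all 3 flox libraries, and each group was tight. The means were 3.66 ± 0.641 CPM in flox and 17.6 ± 1.68 CPM in Cre (mean ± SD, n = 3), a log2 fold change of 2.26 ± 0.20 (standard error) with an adjusted p of 0.0226 by edgeR. With each library left out in turn the log2 fold change stayed between 2.20 and 2.42, and the adjusted p ranged from 0.000687 to 0.105, with the call lost without flox 1, flox 2, Cre 1 or Cre 2. All 9 other normalisations, tools, filters and scales called it higher. The mesothelial marker sum in Cre 3 (260 CPM) lay within the flox range of 237 to 327 CPM, while Adcyap1r1 in Cre 3 was 16.9 CPM, close to the other Cre libraries. The part of the mesothelial markers in this difference was not tested.

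Vipr1 encodes VPAC1, which binds VIP and PACAP alike. Its levels were 5.01, 5.34 and 3.01 CPM in flox 1 to 3 and 2.73, 2.82 and 9.36 CPM in Cre 1 to 3. Cre 3 was the highest library and Cre 1 and 2 were the lowest, so the groups overlapped, and the log2 fold change of 0.16 ± 0.55 did not pass (adjusted p = 0.862). Without Cre 3 it was -0.66 (adjusted p = 0.247). Vipr2, which encodes VPAC2, had 9, 4 and 0 counts in flox 1 to 3 and 14, 6 and 6 counts in Cre 1 to 3 and was not tested. Compared per length, in the deposited FPKM, Vipr1 led in flox 1 and 2, both were nearly level in flox 3, and Adcyap1r1 led in each Cre library. Adcyap1r1 took 30.97, 29.6 and 50.4% in flox 1 to 3 and 79.7, 82.4 and 55.4% in Cre 1 to 3 of the summed FPKM of the 3 receptors. Vipr1 took 67.7, 69.7 and 49.6% in flox 1 to 3 and 19.2, 17.2 and 44.3% in Cre 1 to 3. The receptor sum was low throughout, at 1.40, 1.42 and 1.25 FPKM in flox and 3.11, 3.54 and 4.48 FPKM in Cre. These values are a description and were not tested as shares.

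**Figure D2:**
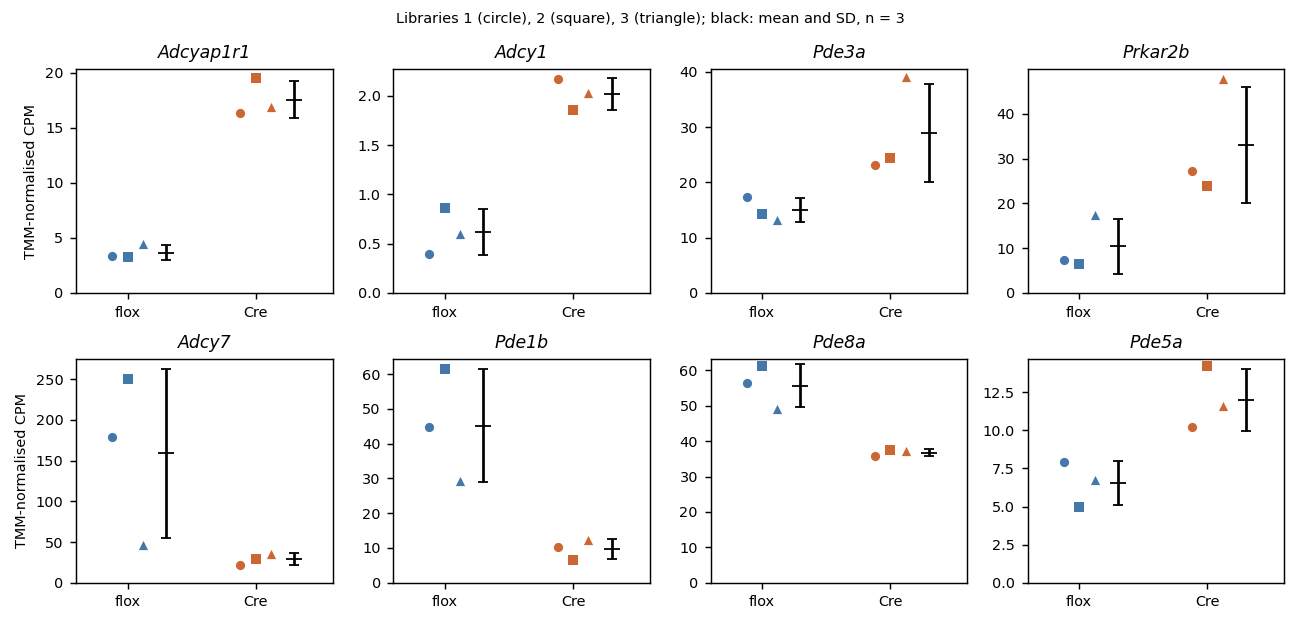
TMM-normalised CPM (vertical axes, each from 0) by group for the 6 called members and for Prkar2b and Pde5a, whose adjusted p lies just over the threshold. Coloured points are single libraries and black bars the mean and SD of 3. The groups do not overlap in any of the 8 panels, and flox 3 lies nearest to Cre for Adcyap1r1, Adcy7, Pde1b, Pde8a and Prkar2b.

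Among the adenylyl cyclases, Adcy7 fell and Adcy1 rose. 8 of the 10 cyclase genes were tested. Adcy7 encodes a cyclase stimulated by G protein beta-gamma subunits and known for its abundance in blood-derived cells (chromosome 8, 88272403 to 88329962). Single libraries gave 179.6, 251 and 46.3 CPM in flox 1 to 3 and 21.2, 29.5 and 35.9 CPM in Cre 1 to 3. Flox 1 and 2 were far above the rest, flox 3 was close to the Cre libraries, and the groups did not overlap. The log2 fold change was -2.46 ± 0.59 with an adjusted p of 0.0396, and the range was -2.89 to -1.94 with each library left out. The adjusted p without flox 3 was 0.00100 and the highest was 0.150, with the call lost on removing any of the other 5 libraries. Of 9 other normalisations, tools, filters and scales, 5 called it, and limma-voom and the 3 fits on log2 FPKM did not. The order of the flox libraries for Adcy7 is that of the macrophage marker sum, highest in flox 2, then flox 1, then flox 3. The part of the macrophage markers in this difference was not tested.

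Adcy1 encodes a calmodulin-stimulated cyclase best known from neurons (chromosome 11, 7063489 to 7178506). It had few reads, 15, 30 and 24 counts in flox 1 to 3 and 87, 77 and 83 counts in Cre 1 to 3. Every Cre library was above every flox library. In normalised terms it was 0.617 ± 0.235 CPM in flox and 2.02 ± 0.1597 CPM in Cre (mean ± SD, n = 3), with a log2 fold change of 1.71 ± 0.41 and an adjusted p of 0.0406. This ranged from 1.48 to 2.03 with each library left out, and of these 6 fits only the one without flox 3 called it. Of 8 other settings without the replicate block that tested it, 7 called it, the exception being limma-trend on log2(FPKM + 1). At 0.030 to 0.190 FPKM in the 6 libraries it made up under 1% of the cyclase FPKM in each.

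Adcy3, a cyclase of olfactory neurons and cilia, was measured at 42.3, 58.1 and 18.4 CPM in flox 1 to 3 and 24.2, 16.8 and 21.8 CPM in Cre 1 to 3. Flox 2 and 1 were the highest and flox 3 lay within the Cre range, an order among flox libraries shared with the macrophage marker sum, whose part was not tested. The log2 fold change of -0.92 ± 0.40 did not pass (adjusted p = 0.154), and without flox 3 it was -1.26 (adjusted p = 0.00695). Adcy3 shares exon sequence on the other strand with Cenpo, and since the strand setting of the counting is unknown here, reads from the overlap cannot be told apart. Adcy6, one of the calcium-inhibited cyclases, was measured at 41.9, 33.3 and 54.8 CPM in flox 1 to 3 and 61.2, 60.2 and 59.1 CPM in Cre 1 to 3. The Cre libraries were within 59.1 and 61.2 CPM and all above flox, but the flox libraries were spread, and the log2 fold change of 0.47 ± 0.18 did not pass (adjusted p = 0.1205). Without flox 3 it was 0.68 (adjusted p = 0.00984). Its exons overlap Gm29331 on the other strand.

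Adcy4, another beta-gamma-stimulated cyclase, was measured at 18.5, 20.2 and 46.6 CPM in flox 1 to 3 and 20.6, 42.1 and 29.9 CPM in Cre 1 to 3. Flox 3 and Cre 2 were the highest, in both groups the libraries with the most endothelial marker RNA (4564 and 4248 CPM), whose part in it was not tested. Its log2 fold change was 0.12 ± 0.42 (adjusted p = 0.869), and its sign turned on leaving out flox 1, flox 2 or Cre 2. Adcy9, a cyclase that responds weakly to forskolin, stayed between 14.8 and 20.7 CPM in the 6 libraries, with a log2 fold change of 0.027 ± 0.17 and an adjusted p of 0.929. Adcy5, at 1.38 to 2.99 CPM, had a log2 fold change of -0.42 ± 0.38, and Adcy2, at 0.121 to 0.685 CPM and with Gm35161 on the other strand, had one of 0.29 ± 0.69. Neither passed, with adjusted p of 0.461 and 0.798. Adcy8 had 1 to 5 counts in each library. Adcy10, the bicarbonate-responsive soluble cyclase, had 5 counts in Cre 3 and 0 counts in the other 5 libraries. There 3 counts are the limit that a count of 0 allows (0.0732 to 0.0805 CPM by library total, without TMM factors).

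The make-up of the cyclase pool was compared as shares of the summed deposited FPKM of the 10 genes. Adcy7 made up 54.6, 59.5 and 21.1% in flox 1 to 3 and 13.5, 14.9 and 19.3% in Cre 1 to 3. It was the leading cyclase in flox 1 and 2 and not in flox 3 or any Cre library. Adcy4 made up 11.5, 9.82 and 43.6% in flox 1 to 3 and 26.8, 43.5 and 32.9% in Cre 1 to 3. Adcy6 made up 8.03, 4.99 and 15.8% in flox 1 to 3 and 24.6, 19.2 and 20.05% in Cre 1 to 3, higher in each Cre library than in each flox library. Adcy3 held 13.0 to 23.8% and Adcy9 held 3.45 to 8.56% across the 6 libraries. The mean share of Adcy7 was 45.1 ± 20.9% in flox and 15.9 ± 3.04% in Cre (SD, n = 3), a difference of -29.2 points that ranged from -41.1 to -22.0 points with each library left out. The summed FPKM of the family was 41.7, 52.0 and 30.1 in flox and 23.0, 28.6 and 26.3 in Cre. A share falls when another gene's level rises, so these shares are not independent of each other.

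**Figure D3:**
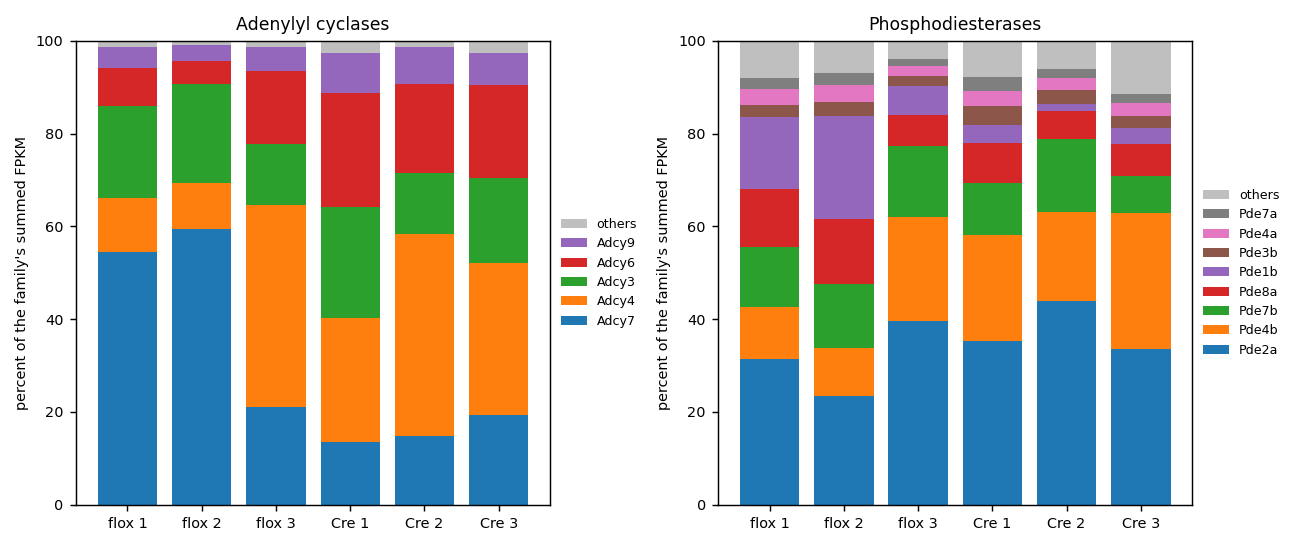
Share of the summed deposited FPKM (vertical axis, percent) taken by each adenylyl cyclase (left) and each phosphodiesterase (right) in the 6 libraries, with the smaller genes joined as others. Adcy7 fills over 54% of the cyclase bar in flox 1 and 2 and 13.5 to 21.1% in the other 4 libraries, and Pde1b shrinks from 6.28 to 22.1% in flox to 1.62 to 3.88% in Cre.

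The phosphodiesterases were measured as 22 genes, of which 16 were tested, and Pde3a rose while Pde1b and Pde8a fell. Pde1b and Pde3a belong to the families that hydrolyse both nucleotides, and Pde8a to those selective for cAMP. Pde1b encodes a calcium- and calmodulin-activated enzyme (chromosome 15, 103503034 to 103530052). The libraries held it at 44.9, 61.5 and 29.2 CPM in flox 1 to 3 and 10.3, 6.42 and 12.2 CPM in Cre 1 to 3. The groups were well apart, although flox 3 was the lowest flox library. The means were 45.2 ± 16.2 CPM in flox and 9.65 ± 2.95 CPM in Cre (mean ± SD, n = 3), with a log2 fold change of -2.23 ± 0.35 and an adjusted p of 0.0237. With each library left out the log2 fold change ranged from -2.46 to -1.92 and the adjusted p from 0.00248 to 0.107, with the call lost without flox 1, flox 2, Cre 1 or Cre 2. All 9 other normalisations, tools, filters and scales called it. Its order over the 6 libraries is that of the macrophage marker sum, highest in flox 2 and lowest in Cre 2. By the mean of log2(CPM + 1) over those markers, Cre 1 (6.35) lies just above Cre 3 (6.29), unlike Pde1b. The part of those markers in the difference of Pde1b between the groups was not tested.

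The sister genes of Pde1b did not pass the test. Pde1a was measured at 14.5, 10.03 and 4.85 CPM in flox 1 to 3 and 9.06, 9.12 and 30.3 CPM in Cre 1 to 3. Cre 3 alone was high, and the log2 fold change of 0.72 ± 0.60 (adjusted p = 0.424) turned to -0.081 (adjusted p = 0.918) without it. Pde1c was low, at 0.293 to 0.579 CPM, with a log2 fold change of 0.081 ± 0.49 (adjusted p = 0.924). The difference between the fold changes of these genes was not tested.

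Pde3a and Pde3b encode the enzymes that cGMP inhibits, targets of cilostamide-type drugs. Pde3a was measured at 17.4, 14.3 and 13.2 CPM in flox 1 to 3 and 23.2, 24.4 and 39.1 CPM in Cre 1 to 3. Every Cre library was above every flox library, and Cre 3 was the highest. The log2 fold change was 0.95 ± 0.24 with an adjusted p of 0.0446, it ranged from 0.69 to 1.11 with each library left out, and of these fits only the one without flox 3 called it. Of 9 other settings without the replicate block 8 called it, the exception being limma-voom. Its exons overlap Gm28523 on the other strand. Within each group Pde3a ran in the order of the stellate marker sum. That sum was 3074, 1747 and 1254 CPM in flox 1 to 3 and 2188, 2937 and 3576 CPM in Cre 1 to 3. Over all 6 libraries the orders differ, and the part of those markers in the level of Pde3a was not tested. Pde3b was measured at 10.6, 11.3 and 14.3 CPM in flox 1 to 3 and 14.99, 16.5 and 13.2 CPM in Cre 1 to 3. The groups overlapped, with a log2 fold change of 0.30 ± 0.18 and an adjusted p of 0.279. Per length, Pde3a stood at 0.612, 0.471 and 0.344 of the FPKM of Pde3b in flox and at 0.577, 0.551 and 1.11 in Cre, so Cre 3 was the only Cre library outside the flox range.

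Pde2a, the enzyme that cGMP stimulates, had the highest mean FPKM of the phosphodiesterases. Measured levels were 139, 99.5 and 282 CPM in flox 1 to 3 and 144, 267 and 180.4 CPM in Cre 1 to 3. Flox 3 and Cre 2 were the highest, and the order of all 6 libraries is that of the endothelial marker sum. That sum reflects mainly its high genes, such as Cdh5 at 491 to 2010 CPM. By the mean of log2(CPM + 1) over those markers, flox 3 (7.23) and Cre 2 (7.04) are also highest. By that mean, however, flox 1 (6.63) and flox 2 (6.47) lie above Cre 1 (6.23) and Cre 3 (6.26). The part of those markers in the level of Pde2a was not tested. Between the groups the log2 fold change was 0.18 ± 0.41 (adjusted p = 0.787), and its sign turned without flox 2 or Cre 2. Its exons overlap those of Gm45837 on the same strand, so that its count is uncertain. Pde10a, a dual enzyme best known from the striatum, was measured at 10.001, 8.19 and 40.8 CPM in flox 1 to 3 and 14.3, 18.2 and 22.03 CPM in Cre 1 to 3. Flox 3 was far above the other 5 libraries, and the log2 fold change was -0.11 ± 0.61 with all libraries (adjusted p = 0.915) and 1.003 (adjusted p = 0.0202) without flox 3. Pde11a had 0 to 5 counts and was not tested.

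Among the cAMP-selective enzymes, Pde8a was lower in Cre by a small margin. Pde8a encodes a high-affinity enzyme that does not respond to rolipram (chromosome 7, 81213596 to 81334533). It was measured at 56.5, 61.4 and 49.2 CPM in flox 1 to 3 and 35.7, 37.5 and 37.2 CPM in Cre 1 to 3. The Cre libraries were nearly level, and even flox 3 lay above them. The means were 55.7 ± 6.15 CPM in flox and 36.8 ± 0.963 CPM in Cre (mean ± SD, n = 3), a log2 fold change of -0.60 ± 0.11 with an adjusted p of 0.0264. It ranged from -0.68 to -0.51 with each library left out, and of these fits only the one without flox 3 called it. Of 9 other settings without the replicate block 8 called it, the exception being limma-trend on log2(FPKM + 1). Pde8b was measured at 7.09, 10.3 and 2.64 CPM in flox 1 to 3 and 1.15, 1.66 and 2.86 CPM in Cre 1 to 3. Flox 2 and 1 were the highest, and flox 3 lay just under Cre 3. A log2 fold change of -1.82 ± 0.57 did not pass (adjusted p = 0.07605), and without flox 3 it was -2.19 (adjusted p = 0.0121). For Pde8a and Pde8b the flox libraries ran from flox 2 to flox 1 to flox 3, as did the macrophage marker sum, whose part was not tested. Exons of Pde8b overlap Gm48420 on the other strand.

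Pde4b, an inflammation-linked member of the rolipram-sensitive family, had the highest mean FPKM of the cAMP-selective enzymes. Its levels were 61.3, 55.05 and 200.2 CPM in flox 1 to 3 and 116, 145 and 196 CPM in Cre 1 to 3. Flox 1 and 2 were the lowest libraries, while flox 3 was the highest of the 6. The log2 fold change of 0.53 ± 0.52 did not pass (adjusted p = 0.4997), and without flox 3 it was 1.39 (adjusted p = 0.00717). Pde4d was measured at 3.99, 5.06 and 6.59 CPM in flox 1 to 3 and 6.18, 8.18 and 8.24 CPM in Cre 1 to 3, with a log2 fold change of 0.53 ± 0.26 (adjusted p = 0.196). Pde4a stayed between 14.1 and 16.7 CPM and Pde7a between 17.0 and 19.7 CPM, with log2 fold changes of -0.061 ± 0.13 and 0.066 ± 0.12 and adjusted p of 0.774 and 0.739. Pde7a shares exon sequence with Gm16093 on the other strand. Pde7b, its sister, was spread within both groups, at 54.5, 56.2 and 102 CPM in flox 1 to 3 and 43.4, 89.9 and 41.3 CPM in Cre 1 to 3. Flox 3 and Cre 2 were again the highest, and the log2 fold change was -0.29 ± 0.38 (adjusted p = 0.626). Pde4c had 8, 15 and 5 counts in flox 1 to 3 and 2, 1 and 6 counts in Cre 1 to 3 and was not tested.

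Pde5a, the cGMP-specific enzyme that sildenafil inhibits, was the tested member of the cGMP-selective group. Single libraries gave 7.901, 4.999 and 6.71 CPM in flox 1 to 3 and 10.2, 14.2 and 11.6 CPM in Cre 1 to 3. Every Cre library was above every flox library. The log2 fold change was 0.88 ± 0.24, and the adjusted p of 0.0517 lay just over the threshold. Of 9 other normalisations, tools, filters and scales, 6 called it, DESeq2 and library totals among them, and so did the fit without flox 3. Its exons overlap 4930447N08Rik on the other strand. The photoreceptor genes Pde6a, Pde6b and Pde6c had 1, 2 and 0 counts in flox 1 and 0 counts in the other 5 libraries. Pde9a had 0, 1 and 0 counts in flox 1 to 3 and 10, 1 and 4 counts in Cre 1 to 3. Pde6d, which encodes a prenyl-binding chaperone rather than an enzyme, lay between 21.2 and 25.7 CPM, with a log2 fold change of -0.0082 ± 0.14 and an adjusted p of 0.973.

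By share of the summed FPKM of the 21 enzyme genes, Pde2a led in each of the 6 libraries, with 31.5 ± 8.12% in flox and 37.6 ± 5.55% in Cre (SD, n = 3). Pde4b made up 11.1, 10.4 and 22.5% in flox 1 to 3 and 22.9, 19.2 and 29.2% in Cre 1 to 3. It was next after Pde2a in flox 3 and each Cre library, while in flox 1 and 2 Pde1b, Pde7b and Pde8a lay above it. Pde7b held 8.12 to 15.7% and Pde8a 6.001 to 13.995% across the libraries. Pde1b made up 15.5, 22.1 and 6.28% in flox 1 to 3 and 3.88, 1.62 and 3.48% in Cre 1 to 3. Its share was smaller in every Cre library than in any flox library. The family sum was 70.4, 66.1 and 123.3 FPKM in flox and 74.9, 110.0 and 95.6 FPKM in Cre, so the groups overlapped.

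**Figure D4:**
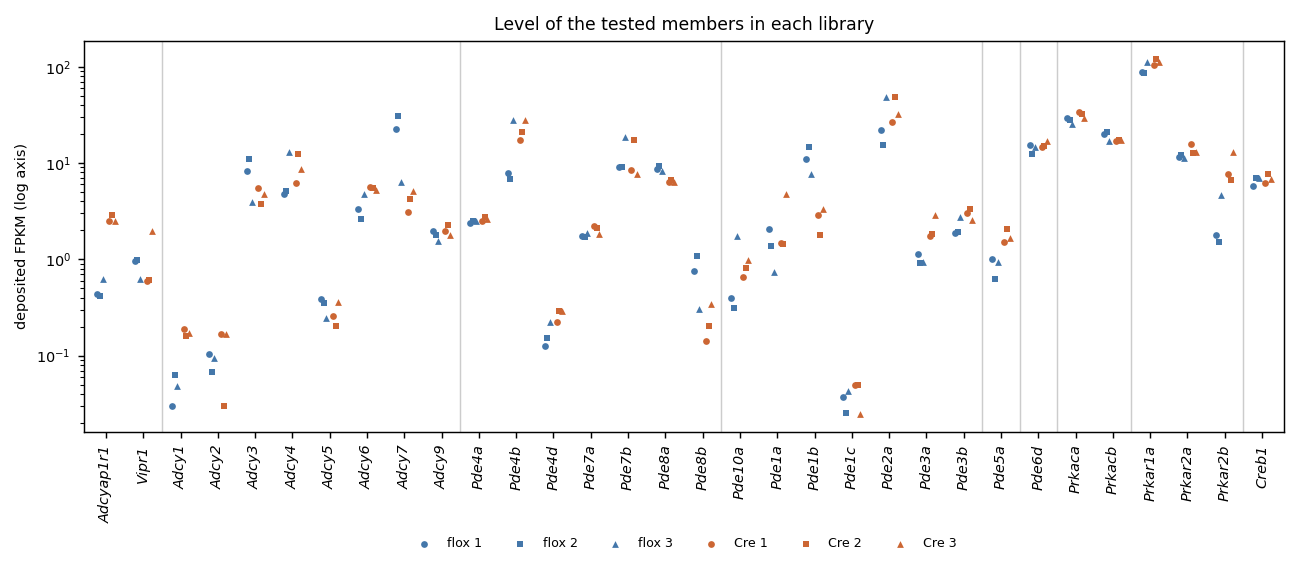
Deposited FPKM (vertical log axis) of the 32 tested members in each library, in the order receptors, cyclases, phosphodiesterases, PKA subunits and Creb1, with grey lines between roles. Flox libraries are blue and Cre libraries orange, with circles, squares and triangles for libraries 1, 2 and 3. Levels run from Pde1c and Adcy1 under 0.2 FPKM to Prkar1a at 86.9 to 122 FPKM.

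Of the 5 PKA subunits among the members, 5 were tested and 0 passed with edgeR. Prkar2b was at an unadjusted p below 0.05 and was called by DESeq2, while the other 4 varied less between libraries. A further regulatory subunit gene, Prkar1b, is not a member and is given below with the inhibitors and anchors of PKA. Prkaca, the main catalytic subunit, was measured at 78.4, 78.1 and 63.7 CPM in flox 1 to 3 and 79.7, 76.3 and 70.4 CPM in Cre 1 to 3. The libraries overlapped, with a log2 fold change of 0.040 ± 0.12 and an adjusted p of 0.841. Prkacb, the second catalytic subunit, was measured at 130.5, 140.03 and 101 CPM in flox 1 to 3 and 95.6, 100.3 and 103 CPM in Cre 1 to 3. Flox 1 and 2 were the highest, flox 3 was level with Cre, and the log2 fold change of -0.32 ± 0.14 did not pass (adjusted p = 0.159) with all libraries, against -0.44 (adjusted p = 0.0115) without flox 3. Prkaca held 57.5 to 60.4% of the catalytic FPKM in flox and 62.5 to 66.9% in Cre.

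Prkar1a, a regulatory subunit of type I PKA, had the highest level of all members per length. The libraries held it at 386, 389 and 455 CPM in flox 1 to 3 and 398, 467 and 436 CPM in Cre 1 to 3, with a log2 fold change of 0.080 ± 0.12 and an adjusted p of 0.673. Flox 3 and the 3 Cre libraries lay above flox 1 and 2. Prkar2a was measured at 61.9, 65.96 and 55.4 CPM in flox 1 to 3 and 73.2, 59.6 and 62.7 CPM in Cre 1 to 3, with a log2 fold change of 0.094 ± 0.12 and an adjusted p of 0.6198. The exception was Prkar2b, the second subunit of type II PKA, known from neurons and fat cells (chromosome 12, 31958476 to 32061296). Measured levels were 7.27, 6.35 and 17.5 CPM in flox 1 to 3 and 27.2, 23.96 and 47.8 CPM in Cre 1 to 3. Every Cre library was above every flox library, and flox 3 and Cre 3 were the highest of their groups. The means were 10.4 ± 6.18 CPM in flox and 32.98 ± 12.9 CPM in Cre (mean ± SD, n = 3), a log2 fold change of 1.67 ± 0.46 with an adjusted p of 0.0552, just over the threshold. Of 9 other settings without the replicate block 6 called it, DESeq2 and library totals among them. The log2 fold change ranged from 1.31 to 2.28 with each library left out, and without flox 3 it was 2.28 (adjusted p = 0.00543).

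Per length, Prkar2b stood at 0.153, 0.126 and 0.412 of the FPKM of Prkar2a in flox and at 0.486, 0.524 and 0.993 in Cre. In Cre 3 the type II subunits were thus at nearly the same level. Prkar1a nevertheless held 81.0 to 87.7% of the summed FPKM of the 3 regulatory members in all 6 libraries. This sum leaves out Prkar1b. In flox 1 and 2 Prkar1b (2.64 and 2.90 FPKM) lay above Prkar2b (1.77 and 1.51 FPKM), and in the other libraries it lay below. The ratio of the FPKM of the 3 regulatory members to that of Prkaca and Prkacb was 2.07, 2.04 and 3.04 in flox. It was 2.52, 2.84 and 2.95 in Cre, and the groups overlapped through flox 3.

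Creb1, the transcription factor that PKA phosphorylates, was measured at 53.996, 66.5 and 60.8 CPM in flox 1 to 3 and 50.2, 63.04 and 57.2 CPM in Cre 1 to 3. The groups overlapped, with a log2 fold change of -0.089 ± 0.13 and an adjusted p of 0.662. RNA levels do not report its phosphorylation.

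**Figure D5:**
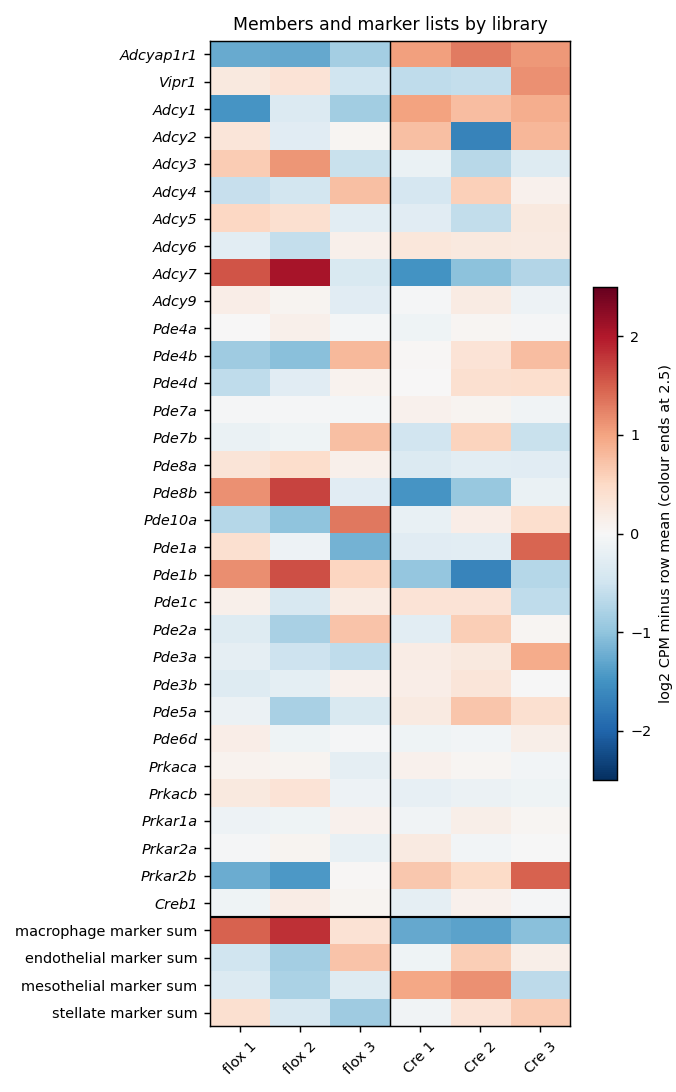
Log2 CPM of the 32 tested members minus each gene's mean over the 6 libraries (colour), with the summed levels of the macrophage, endothelial, mesothelial and stellate markers treated the same way under the black line. Adcy7, Pde8b and Pde1b are high in flox 1 and 2, as is the macrophage sum, while Adcy4, Pde2a and Pde7b are high in flox 3 and Cre 2, as is the endothelial sum.

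Other genes of the pathway were read from lists by function, beside a background of 15.3% called and a median log2 fold change of 0.01 over all genes tested. The G protein alpha subunits that stimulate or inhibit cyclases gave 1 higher and 0 lower of 7 tested, with a median log2 fold change of 0.15. The called gene was Gnai1, an inhibitory subunit, at 6.33, 4.28 and 8.93 CPM in flox 1 to 3 and 14.6, 19.2 and 12.3 CPM in Cre 1 to 3 (log2 fold change 1.24 ± 0.31, adjusted p = 0.0438). Gnai2, a second inhibitory subunit, was lower in every Cre library, at a log2 fold change of -0.62 ± 0.17, and did not pass (adjusted p = 0.0545). Gnas, which encodes Gs, had one of 0.15 ± 0.10 and did not pass (adjusted p = 0.3504), and Gnao1 had one of 0.85 ± 0.48 (adjusted p = 0.251). Gnas shares exon sequence with Nespas, and Gnao1 with 4930488L21Rik, on the other strand.

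The PACAP family ligands and other receptors that raise cAMP gave 0 higher and 1 lower of 10 tested, with a median log2 fold change of -0.24. Ptger4, which encodes the prostaglandin receptor EP4, fell, at 45.4, 55.9 and 25.9 CPM in flox 1 to 3 and 12.9, 12.2 and 10.8 CPM in Cre 1 to 3 (log2 fold change -1.83 ± 0.28, adjusted p = 0.0237). Its exons overlap Ttc33 and Gm15937 on the other strand. Adrb1, an adrenergic receptor gene, had a log2 fold change of -3.90 ± 1.10 and did not pass (adjusted p = 0.0576). It was lower in every Cre library than in any flox library. Glp1r had one of -1.66 ± 0.78 (adjusted p = 0.182). The ligand gene Vip had 0, 0 and 2 counts in flox 1 to 3 and 5, 0 and 0 counts in Cre 1 to 3, and Adcyap1 and the secretin receptor gene were not analysed here. Ptger4 was highest in flox 2 and lowest among the flox libraries in flox 3, as was the macrophage marker sum, and the part of those markers was not tested.

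The further PKA subunit Prkar1b and the inhibitors and anchors of PKA gave 3 higher and 2 lower of 14 tested, with a median log2 fold change of 0.16. Prkar1b was measured at 9.37, 10.6 and 2.96 CPM in flox 1 to 3 and 1.83, 1.40 and 3.03 CPM in Cre 1 to 3. Its groups overlapped, and the log2 fold change of -1.87 ± 0.54 did not pass with edgeR (adjusted p = 0.0623). Pkib, an inhibitor of the catalytic subunit, fell, at 39.98, 58.5 and 10.1 CPM in flox 1 to 3 and 4.45, 4.41 and 4.67 CPM in Cre 1 to 3 (log2 fold change -3.00 ± 0.60, adjusted p = 0.0275). Flox 2, 1 and 3 ran from high to low for Pkib, as for the macrophage marker sum, whose part was not tested. The anchoring protein Akap10 was also lower, at 90.5, 102 and 76.8 CPM in flox 1 to 3 and 64.6, 59.9 and 60.95 CPM in Cre 1 to 3 (log2 fold change -0.54 ± 0.13, adjusted p = 0.0384), with the same order among the flox libraries. Akap11 and Pde4dip, which anchor PKA or phosphodiesterases, rose by 0.52 ± 0.12 and 0.56 ± 0.12 on the log2 scale (adjusted p = 0.0377 and 0.0334). The inhibitor Pkia was the third called higher (log2 fold change 1.39 ± 0.35, adjusted p = 0.0452). It was measured at 6.51, 5.26 and 5.27 CPM in flox 1 to 3 and 20.3, 16.5 and 7.87 CPM in Cre 1 to 3. Cre 3 was the lowest Cre library, as for the mesothelial marker sum, whose part was not tested. For Pkia Cre 3 still lay above every flox library.

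Other cAMP effectors and the export gene Abcc4 gave 0 of 5 called by edgeR and 0 at an unadjusted p below 0.05. Each had a log2 fold change above 0, with a median of 0.67. Those of lowest p were Rapgef4 (Epac2, 0.79 ± 0.36, adjusted p = 0.173), Popdc2 (1.77 ± 0.84, adjusted p = 0.187) and Rapgef3 (Epac1, 0.67 ± 0.47, adjusted p = 0.3498). Popdc2 had few reads, 10, 3 and 1 counts in flox 1 to 3 and 11, 15 and 27 counts in Cre 1 to 3. On the cGMP side, the tested genes were guanylyl cyclases, natriuretic receptors, nitric oxide synthases, cGMP kinases and also Pde12, which belongs to none of these classes. They gave 0 higher and 1 lower of 12 tested, with a median of 0.23. Nos1, the neuronal nitric oxide synthase, fell, at 2.73, 2.93 and 0.845 CPM in flox 1 to 3 and 0.525, 0.338 and 0.489 CPM in Cre 1 to 3 (log2 fold change -2.26 ± 0.57, adjusted p = 0.0446). Its order among the flox libraries was that of the macrophage marker sum, whose part was not tested. Nos2, the inducible enzyme, was measured at 4.72, 3.53 and 20.9 CPM in flox 1 to 3 and 83.4, 29.4 and 178 CPM in Cre 1 to 3. Every Cre library was above every flox library, but the spread within Cre was wide, with a log2 fold change of 3.31 ± 0.91 that did not pass (adjusted p = 0.0549). Prkg2 had a log2 fold change of 2.07 ± 0.66 (adjusted p = 0.0792) and Prkg1 one of 0.62 ± 0.26 (adjusted p = 0.142). Levels of Prkg2 were 4.54, 0.833 and 3.90 CPM in flox 1 to 3 and 15.8, 17.0 and 6.14 CPM in Cre 1 to 3. Its order among the Cre libraries was that of the mesothelial marker sum, whose part was not tested. Rapgef4, Rapgef3 and Nos1 have exon overlaps on the other strand (Rapgef4os2, Rapgef3os1 and Gm26995), and Popdc2 on the same strand with Gm21987.

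Relatives and coactivators of CREB gave 0 of 7 called by edgeR and 0 at an unadjusted p below 0.05, with log2 fold changes of -0.22 to 0.23 and the lowest p for Ep300 (-0.22 ± 0.10, adjusted p = 0.173). Textbook CREB target genes gave 0 higher and 1 lower of 10 tested, with 8 of 10 below 0 and a median log2 fold change of -0.50. Fos, an immediate early gene, fell, at 28.1, 33.3 and 13.6 CPM in flox 1 to 3 and 9.88, 7.58 and 9.29 CPM in Cre 1 to 3 (log2 fold change -1.49 ± 0.34, adjusted p = 0.0353). Per1 and Nr4a1 had log2 fold changes of -0.59 ± 0.17 and -0.57 ± 0.28 and Bdnf one of 1.39 ± 0.51, and none of them passed (adjusted p = 0.0644, 0.196 and 0.106). Exons of Bdnf overlap Gm45346 on the other strand. Fos was highest in flox 2 and lowest among the flox libraries in flox 3, as was the macrophage marker sum, and the part of those markers was not tested.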

How the data were processed

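The authors deposited raw counts per gene symbol and FPKM for 6 libraries, and 0 columns of values were left unused. Per the labels' protocols, 1.3 µg of total RNA per library entered a SMARTER mRNA kit. Each deposited FPKM is the count over its library total and 1 fixed length for the gene, with no TMM-like factor. The builds GRCm38, mm10 and hg38 stand in the submitters' processing notes without a role. The aligner, the counting tool and its strand setting were not given in the sources used here. Groups and replicate numbers come from the titles. The members, gene lists and tests were chosen with earlier results of these data known.

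The test was that of edgeR 4.0.16 under R 4.3.3 (filterByExpr with a minimum count of 10 and total of 15, which removed 8171 of 22966 genes, TMM, quasi-likelihood F-test, two-sided, no covariate). P-values were adjusted over all 14795 genes by Benjamini-Hochberg with a threshold of 0.05, and standard errors are the size of the log2 fold change over the square root of F. With 3 against 3 the smallest permutation p is 0.1, and no permutation test was run. The script was tested on simulated data. Every member is accounted for, with full values for called members and, in each role, for the tested member of lowest p and the member of highest mean FPKM. Others follow their place in the text, and each list gives its genes of lowest p, apart from values that are not reported here. Pkia was named because it completes a count, and Prkar1b because it is a PKA subunit outside the members. Alternatives were RLE factors, library totals, DESeq2 1.42.0, limma-voom (limma 3.58.1), no filter on counts, a filter of 1 CPM in 3 libraries, limma-trend on log2(FPKM + 1) and log2(FPKM + 0.1) and for a mean FPKM of at least 1, a replicate block, and each library left out. Fold changes on the FPKM scales are understated for low genes. Positions and exon overlaps are from GENCODE M21 (GRCm38), and floors cover counting error only.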

Additional observations from a re-analysis of the deposited data

How the results depend on the processing

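Depth of 37273142 to 41006722 counts limits what can be said of the 9 untested members. Over all genes, 2263 passed with edgeR, 4334 with DESeq2 and 1404 with limma-voom, and leaving out each library gave 0 to 5329. Members called were 6 with edgeR and 4 to 9 in the settings without a block, and leaving out each library gave 0 to 14. With the number in the title as a replicate block, 0 genes and 0 members passed, with 4296 genes and 9 members at an unadjusted p below 0.05. Same-numbered libraries deviated from their group means with correlations of 0.022, -0.150 and -0.076. As deviations from means of 3 libraries, these cannot show whether the numbers pair the libraries, which the labels do not say. The cause of each change below was not tested.

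The log2 fold changes that changed sign were all of members not called with all libraries. With library totals these were Creb1 (0.068), Pde4a (0.098) and Pde6d (0.15). With limma-trend on log2(FPKM + 1) they were Creb1 (0.060), Pde10a (0.078), Pde4a (0.070) and Pde6d (0.14). On log2(FPKM + 0.1) they were Creb1 (0.068), Pde10a (0.32), Pde4a (0.094) and Pde6d (0.15). For a mean FPKM of at least 1 they were Creb1 (0.060), Pde4a (0.070) and Pde6d (0.14). With limma-voom they were Adcy2 (-0.047), Pde10a (0.22) and Vipr1 (-0.039), with no count filter Pde6d (0.018), and with the replicate block Pde10a (0.26) and Vipr1 (-0.091). With each library left out, log2 fold changes ranged from -0.017 to 0.78 for Adcy2, -0.16 to 0.68 for Adcy4, -0.091 to 0.13 for Adcy9, -0.15 to 0.016 for Creb1, -0.48 to 1.003 for Pde10a, -0.081 to 1.14 for Pde1a, -0.067 to 0.36 for Pde1c, -0.092 to 0.73 for Pde2a, -0.094 to 0.0054 for Pde4a, -0.068 to 0.083 for Pde6d, -0.73 to 0.076 for Pde7b, -0.049 to 0.11 for Prkaca and -0.66 to 0.48 for Vipr1.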
